A study of Mus musculus with 7 samples.

Results

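Genes of the azurophil (primary) granule and of immature neutrophils were followed in whole thymus of RelB-/- and RelB+/- mice. The members were Mpo, Elane, Prtn3, Ctsg, Ms4a3, Fcnb and Chil3, 7 of the 16593 gene symbols on the array. Every probe that the platform annotation gives 1 of these symbols was taken, which made 13 of 25695 probes. Each of 7 mice aged 8 weeks gave RNA for a single Illumina array. By genotype, 3 mice were homozygous for a disrupted Relb (RelB-/-) and 4 were heterozygous (RelB+/-), although the sample titles call the heterozygotes wild type. The sources used here do not state the strain, the sex or the disrupted allele. Relb codes for 1 of the NF-kB proteins.

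Neutrophils load their granules in the order in which they make them, and azurophil granules come first, at the promyelocyte stage. Transcription of myeloperoxidase and of the neutrophil serine proteases is largely confined to that early stage, and genes of the secondary granules follow later, so that mature neutrophils keep the azurophil proteins but little of their mRNA. The thymus is mainly a site of T cell development and normally holds few granulocytes.

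Among the members, Mpo encodes myeloperoxidase, which makes hypochlorous acid, and Elane, Prtn3 and Ctsg encode the serine proteases neutrophil elastase, proteinase 3 and cathepsin G. Ms4a3 encodes a membrane protein used in mice as a marker of granulocyte and monocyte progenitors. Fcnb encodes ficolin B, a lectin of myeloid cells that can start the complement cascade. Chil3 encodes the chitinase-like protein Ym1, made by neutrophil precursors in mice and also by alternatively activated macrophages, so it is the least specific of the members.

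The 250 bases before the annotated start of the 4 enzyme genes are shown because these genes are switched on together in promyelocytes. Sequences come from RefSeq (GRCm38.p6), where all 7 members had an entry, and each is written 5′ to 3′ on the strand of its gene. The regions are chr11:87793534-87793783 (plus strand) for Mpo, chr10:79886062-79886311 (plus strand) for Elane, chr10:79879417-79879666 (plus strand) for Prtn3 and chr14:56102575-56102824 (minus strand) for Ctsg. Capitals mark matches to any of 4 motifs searched on both strands.
Mpo: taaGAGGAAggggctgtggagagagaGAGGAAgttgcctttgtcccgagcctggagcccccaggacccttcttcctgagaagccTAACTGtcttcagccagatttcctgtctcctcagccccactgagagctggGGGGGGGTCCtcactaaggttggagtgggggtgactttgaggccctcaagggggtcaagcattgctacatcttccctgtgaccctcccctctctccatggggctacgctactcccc
Elane: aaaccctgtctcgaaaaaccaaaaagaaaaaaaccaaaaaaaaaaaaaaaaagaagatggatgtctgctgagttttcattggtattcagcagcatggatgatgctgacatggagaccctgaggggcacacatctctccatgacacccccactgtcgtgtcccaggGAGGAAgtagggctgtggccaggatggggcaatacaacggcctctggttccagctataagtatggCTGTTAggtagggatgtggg
Prtn3: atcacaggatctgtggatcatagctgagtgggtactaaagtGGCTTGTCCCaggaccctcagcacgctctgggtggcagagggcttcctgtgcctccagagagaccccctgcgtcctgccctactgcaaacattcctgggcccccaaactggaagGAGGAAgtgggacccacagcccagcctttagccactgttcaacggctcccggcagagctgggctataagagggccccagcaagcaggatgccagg
Ctsg: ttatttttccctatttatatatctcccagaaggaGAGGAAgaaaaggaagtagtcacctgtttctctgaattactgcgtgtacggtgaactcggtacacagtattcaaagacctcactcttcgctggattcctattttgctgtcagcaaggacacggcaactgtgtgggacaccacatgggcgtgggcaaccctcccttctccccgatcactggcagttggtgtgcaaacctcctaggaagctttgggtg

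The motifs were GAGGAA (the core bound by PU.1), TAACNG (MYB), TTGCNNAA (C/EBP) and GGG and CC parted by any 5 bases (NF-kB). Each of the 4 enzyme promoters held GAGGAA, which began 247 and 224 bases before the start in Mpo, 85 in Elane, 95 in Prtn3 and 216 in Ctsg. In all, 4 of the 7 member promoters held it, against 23.3% of 32851 mouse promoters of the same length. TAACNG was found in 2 of 7 (Mpo and Elane) against 19.8%, and TTGCNNAA in 1 of 7 (Fcnb) against 9.6%. The NF-kB letters, a loose form that 45.8% of promoters hold, were found in 3 of 7 (Mpo, Prtn3 and Chil3). These matches are descriptions of the letters and no binding was measured.

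As a check of the labels, Relb (ILMN_1246841) passed detection on all 4 heterozygous and 0 of 3 homozygous arrays, a reduction of at least 4.48-fold (limma adjusted p = 0.000173). Median raw intensity per array ran from 103.5 to 142.3, and 45.9% to 49.4% of probes were detected. Thymocyte genes were present on every array, with 10 of 12 listed genes tested and 0 called. Transcripts of heart muscle stood out on RelB-/- array 3 and RelB+/- array 2, where 11 and 8 of 16 heart probes were detected, against 1 or 2 on each of the other arrays. Where a call of a named gene changed without both of these arrays, that value is given beside it. The samples are whole tissue, so fewer cells of a type and less RNA per cell cannot be told apart.

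The enzyme genes Mpo and Ctsg and the gene of the chitinase-like protein, Chil3, were higher in RelB-/- thymus, by 5.76-fold, 3.66-fold and 4.64-fold. The sizes depend on the processing: the log2 folds were 1.27, 0.75 and 0.91 without background correction and 0.87, 0.46 and 0.57 in the authors' processed values, where none of the 3 was called (limma adjusted p 0.159, 0.146 and 0.0908). With the replicate number as a block none was called either (limma adjusted p 0.199, 0.141 and 0.0578). No RelB-/- array shares the number of RelB+/- array 4, so the folds of the block fit equalled those without that array. The block also leaves fewer degrees of freedom. Elane and Prtn3 had positive folds that missed the threshold, Fcnb missed it with the smallest fold of the 6 tested, and Ms4a3 was not detected on any array. A gene was called when its limma p, adjusted by Benjamini-Hochberg over 9569 genes, was under 0.05. Of the 6 members tested, 3 were called higher and 0 lower, where 0.105% of all genes tested were called higher and 0.669% lower. Their median log2 fold was 1.65 (range 0.32 to 2.53), beside 0.03 over all genes tested. Mpo, Elane, Ctsg and Chil3 were detected on all 3 RelB-/- arrays, which alone met the filter of 3 arrays, so the count and the median describe the genes that passed and do not stand for all 7 members.

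Detection above background (a detection p under 0.05) differed between the genotypes across the 13 probes. Detected member probes numbered 5, 9 and 10 in the RelB-/- arrays 1 to 3, and 3, 4, 2 and 3 in the RelB+/- arrays 1 to 4. All RelB-/- arrays thus held more detected member probes than any RelB+/- array. Over all probes, 45.9%, 47% and 47.8% were detected on RelB-/- arrays 1 to 3. On RelB+/- arrays 1 to 4 the shares were 48.1%, 46.7%, 49.4% and 48.2%. On all 3 RelB-/- arrays 5 member probes were detected, while 0 were detected on all 4 RelB+/- arrays and 3 were detected on no array. These counts ask for 3 RelB-/- but 4 RelB+/- arrays, and their shares over all probes were not counted. Several probes read the same gene, so the 13 probes are not independent. The dimmer Mpo probes, 2 of 13, were detected on at least 2 RelB-/- arrays and no RelB+/- array, which held for 0.634% of all probes.

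**Figure D1:**
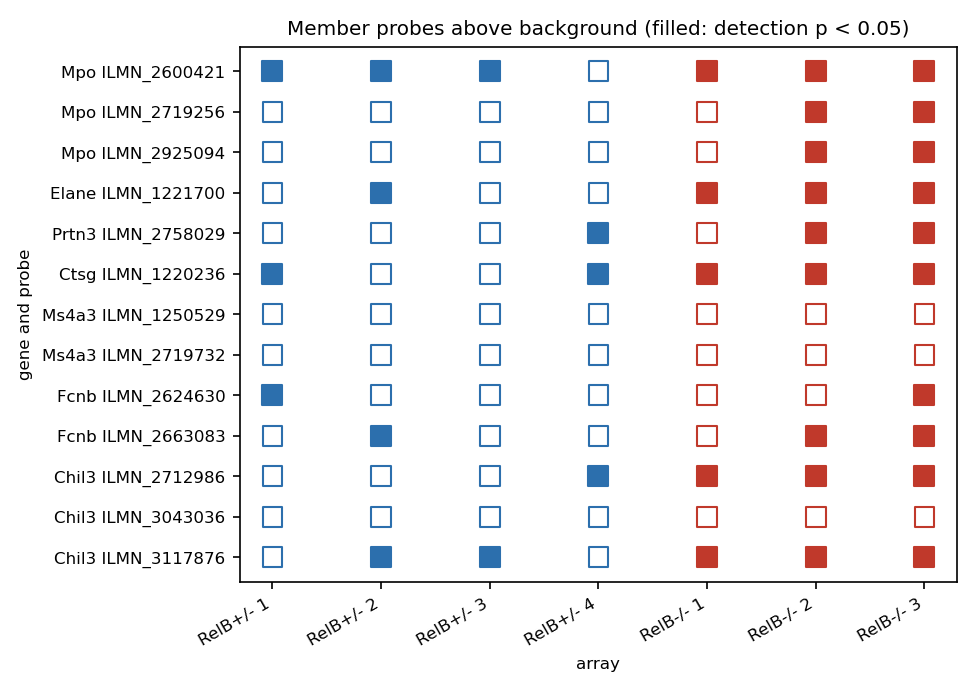
Detection of the 13 member probes (rows) on the 7 arrays (columns); a filled square marks a detection p under 0.05, blue for RelB+/- and red for RelB-/-. Both Ms4a3 rows are empty, and RelB-/- arrays hold 5, 9 and 10 filled squares against 2 to 4 on RelB+/- arrays.

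Mpo was read by 3 probes. Raw intensity of ILMN_2600421 was 170, 489 and 380 in the RelB-/- arrays 1 to 3 and 153, 113, 122 and 138 in the RelB+/- arrays 1 to 4. All RelB-/- arrays lay above all RelB+/- arrays, and the lowest RelB-/- array, array 1, was close to the highest RelB+/- array, array 1. After background correction and normalization the log2 level was 7.78 ± 0.865 (SD, n = 3) in RelB-/- and 5.26 ± 0.485 (SD, n = 4) in RelB+/- thymus. The log2 fold was 2.53 (SE 0.41, 95% interval 1.60 to 3.46, limma adjusted p = 0.0341).

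The other Mpo probes were dimmer and did not pass the filter. ILMN_2719256 read 98.4, 139 and 153 on RelB-/- arrays and 108, 104, 111 and 119 on RelB+/- arrays. ILMN_2925094 read 108, 153 and 158 on RelB-/- arrays and 118, 100.04, 116 and 121 on RelB+/- arrays. Both were detected on RelB-/- arrays 2 and 3 and not on array 1. Their RelB-/- means, which include the undetected array 1, lay 1.03-fold and 1.35-fold above the RelB+/- bound. Without a filter the limma adjusted p was 0.616 and 0.315, in a fit that called 0.0195% of all probes higher. The normalized groups of ILMN_2719256 overlapped, and the 95% interval of its log2 fold without a filter was -0.05 to 0.80. No direction is read for ILMN_2719256, and the bounds leave the size of the difference at both dimmer probes unknown. The Mpo call was lost when any of RelB-/- array 2 or 3 or RelB+/- array 2, 3 or 4 was left out (log2 fold 2.11, 2.49, 2.56, 2.41 and 2.39, limma adjusted p 0.0735, 0.089, 0.0906, 0.124 and 0.0749) and without both arrays with heart transcripts (2.52, limma adjusted p = 0.155).

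Among the serine proteases, Ctsg was called and Elane and Prtn3 were not. Raw intensity of Ctsg (ILMN_1220236) was 133, 225 and 290 in the RelB-/- arrays 1 to 3 and 126, 105, 113 and 145 in the RelB+/- arrays 1 to 4. RelB-/- array 1 lay below RelB+/- array 4 before normalization, and the groups did not overlap after it. The normalized log2 level was 6.78 ± 0.621 (SD, n = 3) and 4.91 ± 0.200 (SD, n = 4), which made a log2 fold of 1.87 (SE 0.27, 95% interval 1.24 to 2.50, limma adjusted p = 0.0213). RelB+/- arrays 2 and 3 did not pass detection for Ctsg, so the fold and its interval depend in part on the background floor. The Ctsg call was lost without RelB-/- array 2 or 3 or RelB+/- array 1, 2 or 3 (limma adjusted p 0.0804, 0.0511, 0.0596, 0.0643 and 0.0796) and without both heart arrays (log2 fold 1.63, limma adjusted p = 0.107).

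Raw intensity of Prtn3 (ILMN_2758029) was 104, 198 and 254 in the RelB-/- arrays 1 to 3 and 115, 103, 105 and 140 in the RelB+/- arrays 1 to 4. RelB-/- arrays 2 and 3 were high, and RelB-/- array 1 lay within the RelB+/- range. Normalized log2 levels were 6.11 ± 1.18 (SD, n = 3) and 4.69 ± 0.222 (SD, n = 4), which made a log2 fold of 1.42 (SE 0.46, 95% interval 0.36 to 2.48, limma adjusted p = 0.285). RelB-/- array 1 and RelB+/- arrays 1, 2 and 3 did not pass detection for Prtn3, so their values are background values. With RelB-/- array 1 left out, the log2 fold was 2.10 and the gene passed the threshold (limma adjusted p = 0.00606), so 1 array decided the call.

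Raw intensity of Elane (ILMN_1221700) was 110, 182 and 190 in the RelB-/- arrays 1 to 3 and 114, 113, 113 and 132 in the RelB+/- arrays 1 to 4. As for Prtn3, RelB-/- arrays 2 and 3 were high and array 1 was not. Normalized log2 levels were 5.85 ± 0.646 (SD, n = 3) and 4.81 ± 0.363 (SD, n = 4), which made a log2 fold of 1.03 (SE 0.31, 95% interval 0.31 to 1.75, limma adjusted p = 0.261). In RelB+/- thymus Elane passed detection on array 2 alone, so that mean and SD come mostly from background values. Prtn3 and Elane are neighbours on chromosome 10 in the RefSeq table, and they shared the position of RelB-/- array 1 within or near the RelB+/- values.

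Ms4a3, the progenitor marker, was below the detection threshold on 7 of 7 arrays with both of its probes. ILMN_1250529 read 99.1, 117 and 134 in the RelB-/- arrays 1 to 3 and 121, 91.7, 106 and 125 in the RelB+/- arrays 1 to 4. ILMN_2719732 read 99.8, 122 and 140.1 on RelB-/- arrays and 99.3, 99.1, 113 and 118 on RelB+/- arrays. No direction can be read for Ms4a3, and the presence of progenitors was not shown by this marker. The name immature neutrophil thus rests on the granule enzymes alone. Of these, Mpo and Ctsg were called, though not under every alternative, and Elane and Prtn3 missed the threshold. The presence of immature neutrophils was not tested.

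Fcnb was not called and its groups overlapped. Its brighter probe, ILMN_2663083, read 105, 140.3 and 148 in the RelB-/- arrays 1 to 3 and 108, 109, 109 and 130.4 in the RelB+/- arrays 1 to 4. Signals of RelB-/- array 1 and RelB+/- arrays 1, 3 and 4 did not pass detection. Normalized log2 levels were 5.0 ± 0.170 (SD, n = 3) and 4.68 ± 0.309 (SD, n = 4), which made a log2 fold of 0.32 (SE 0.19, 95% interval -0.12 to 0.77, limma adjusted p = 0.494). The upper end of that interval lies below the folds measured for Mpo, Ctsg and Chil3, and a direct test between genes was not made. Its other probe, ILMN_2624630, was detected on 1 array of each genotype.

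Chil3 was the member with the smallest adjusted p. Raw intensity of ILMN_2712986 was 188, 184 and 324 in the RelB-/- arrays 1 to 3 and 118, 103, 115 and 143 in the RelB+/- arrays 1 to 4. The groups did not overlap before or after normalization. In raw intensity RelB-/- array 1 was as high as array 2, and after normalization it lay above array 2 (log2 7.15 and 6.38). Normalized log2 levels were 7.02 ± 0.582 (SD, n = 3) and 4.80 ± 0.141 (SD, n = 4), which made a log2 fold of 2.22 (SE 0.25, 95% interval 1.63 to 2.80, limma adjusted p = 0.00592). Among the heterozygotes only array 4 passed detection for this probe, so the RelB+/- mean and SD come mostly from background values. The size of the fold and the width of its interval therefore depend on the background floor.

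A second Chil3 probe, ILMN_3117876, read 124, 150.4 and 183 on RelB-/- arrays and 118, 109, 120 and 119 on RelB+/- arrays. Its groups did not overlap either, with a log2 fold of 0.99 (SE 0.20), which missed the threshold when every kept probe was tested (limma adjusted p = 0.105, where 0.0642% of kept probes were called higher). Another probe, ILMN_3043036, was detected on no array. Chil3 has a near-identical paralog, Chil4, so its probes may also bind Chil4 transcripts, and the Chil4 probe was detected on 0 of 7 arrays. The Chil3 call held with each array left out (log2 fold 1.96 to 2.53, limma adjusted p 0.00142 to 0.0362) and also when both heart arrays were dropped (1.95, limma adjusted p = 0.0488), and was lost in 2 of 21 alternatives, the replicate block and the authors' processed values given above.

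**Figure D2:**
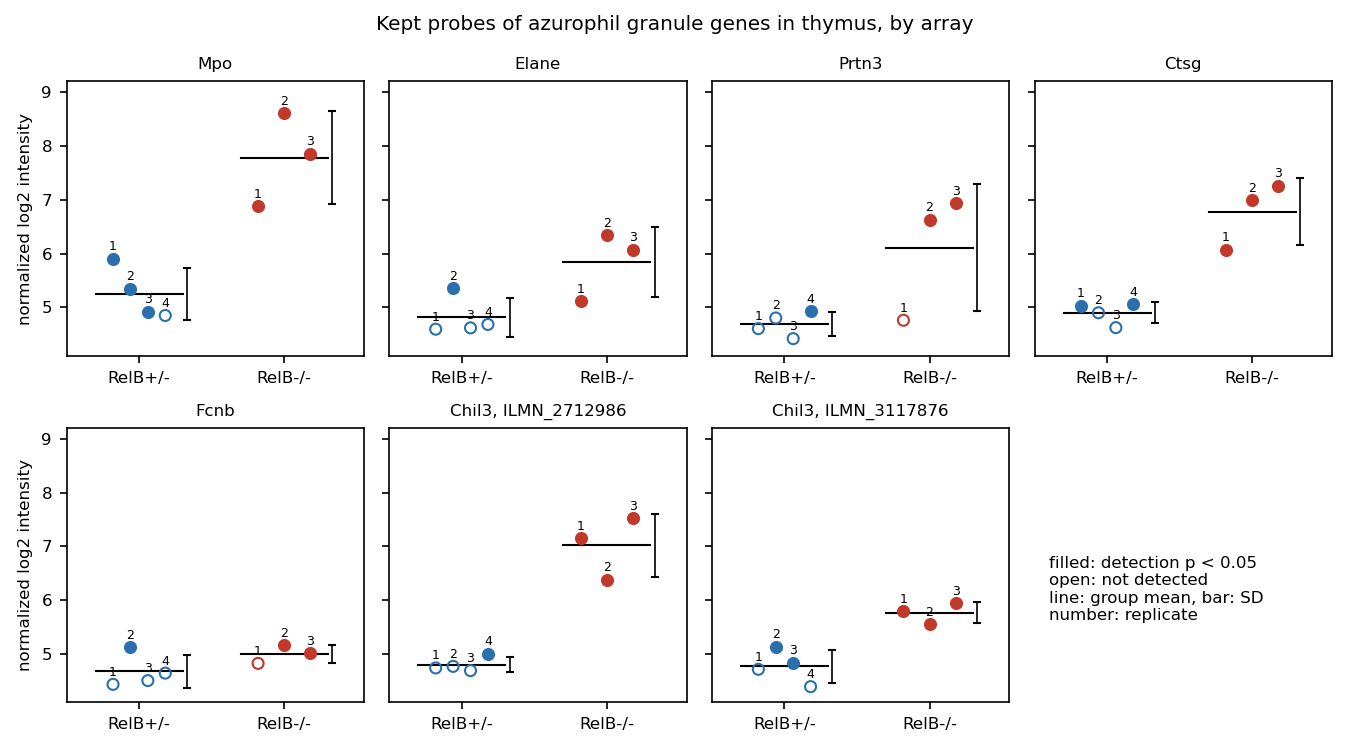
Normalized log2 intensity (vertical axis) of the 7 kept member probes on the RelB+/- (blue) and RelB-/- (red) arrays; each point is 1 array with its replicate number, open where not detected, the line is the group mean and the bar the SD. The groups are apart for Mpo, Ctsg and both Chil3 probes, and RelB-/- array 1 lies near the RelB+/- arrays for Elane and Prtn3.

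**Figure D3:**
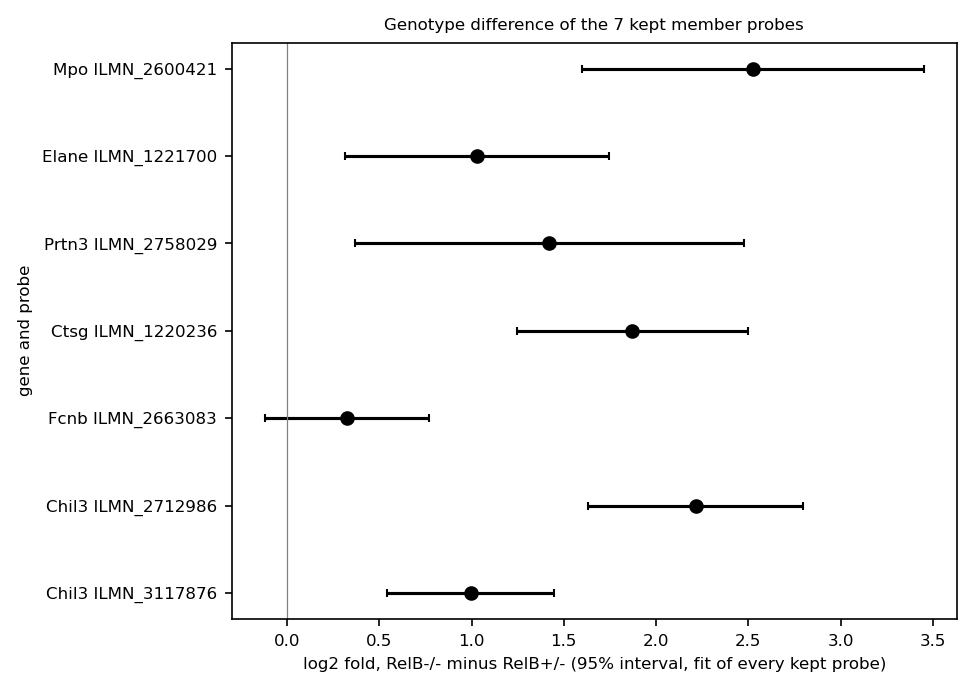
Log2 fold, RelB-/- minus RelB+/- (horizontal axis), with its 95% interval for the 7 kept member probes, from a fit of every kept probe. The Mpo point lies at 2.53 and the Fcnb point at 0.32, where the interval spans 0.

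The members varied among the RelB-/- arrays. The median SD of the 6 members was 0.633 in RelB-/- and 0.266 in RelB+/- thymus, where the medians over all genes tested were 0.204 and 0.246. The 6 members were detected on 1 to 3 of the 4 RelB+/- arrays, and near background the offset shrinks differences. Their RelB-/- and RelB+/- SDs are therefore not directly comparable. Expressed as a log2 difference from each gene's RelB+/- mean and averaged over the 6 members, RelB-/- arrays 1, 2 and 3 stood at 0.94, 1.83 and 1.92. The RelB+/- arrays 1 to 4 stood at 0.03, 0.19, -0.23 and 0.005. RelB-/- array 1 was the lowest RelB-/- array for 5 of the 6 genes, and Chil3, whose lowest was array 2, was the exception. The highest RelB-/- array was array 2 for Mpo, Elane and Fcnb and array 3 for Prtn3, Ctsg and Chil3.

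Genes of other granulocytes and of macrophages were set beside the members over the same arrays. Averaged the same way, 13 secondary granule and mature neutrophil genes stood at 0.65, 1.04 and 2.36 in the RelB-/- arrays 1 to 3 and at -0.63, 1.05, -0.73 and 0.31 in the RelB+/- arrays 1 to 4. Their RelB-/- arrays had the order of the member mean. RelB+/- array 2 was as high as RelB-/- array 2 for the secondary granule genes, while the azurophil genes on these arrays stood at 0.19 and 1.83. The 4 eosinophil genes stood at 3.37, 1.52 and 4.69 in the RelB-/- arrays 1 to 3, and the 4 genes of alternatively activated macrophages at 0.76, 0.37 and 1.32. In the RelB+/- arrays 1 to 4 the eosinophil genes stood at -0.32, 0.87, -0.29 and -0.26. The macrophage genes stood there at -0.32, 0.05, -0.35 and 0.63, so their genotypes overlapped. Both lists had RelB-/- array 2 as their lowest RelB-/- array, as Chil3 did, whereas Mpo and Elane were highest there. Summed linear levels ran from 891 to 7641 on RelB-/- and from 160 to 581 on RelB+/- arrays for the eosinophil list, and from 1480 to 4157 and from 637 to 1716 for the macrophage list. Among untested eosinophil genes, eosinophil peroxidase (Epx) was detected on RelB-/- array 3 and RelB+/- array 2. Ear10 was detected on RelB-/- array 3 and RelB+/- array 1, Ccr3 on RelB-/- array 2, Il5ra on RelB+/- array 3 and Siglecf on none. Among untested macrophage genes, arginase (Arg1) was detected on RelB-/- arrays 1 and 3 and Pdcd1lg2 on RelB-/- array 1 and RelB+/- array 2. Clec10a and Chil4 were detected on no array. The part of these cell types in the Chil3 result was not tested.

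RelB-/- array 2, where Mpo, Elane and Fcnb were highest, had 1 of 16 heart probes detected, as had RelB-/- array 1. The heart list, of which Myl4 and Nppa were tested, stood at -1.18, -1.28 and 5.60 in the RelB-/- arrays 1 to 3 and at -0.98, 3.80, -1.34 and -1.48 in the RelB+/- arrays 1 to 4. Both arrays with heart transcripts had the highest azurophil mean of their genotype, 1.92 on RelB-/- array 3 and 0.19 on RelB+/- array 2. The same arrays were the highest of their genotype for the secondary granule list (2.36 and 1.05) and the eosinophil list (4.69 and 0.87). A link between these lists and the heart transcripts was not tested.

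**Figure D4:**
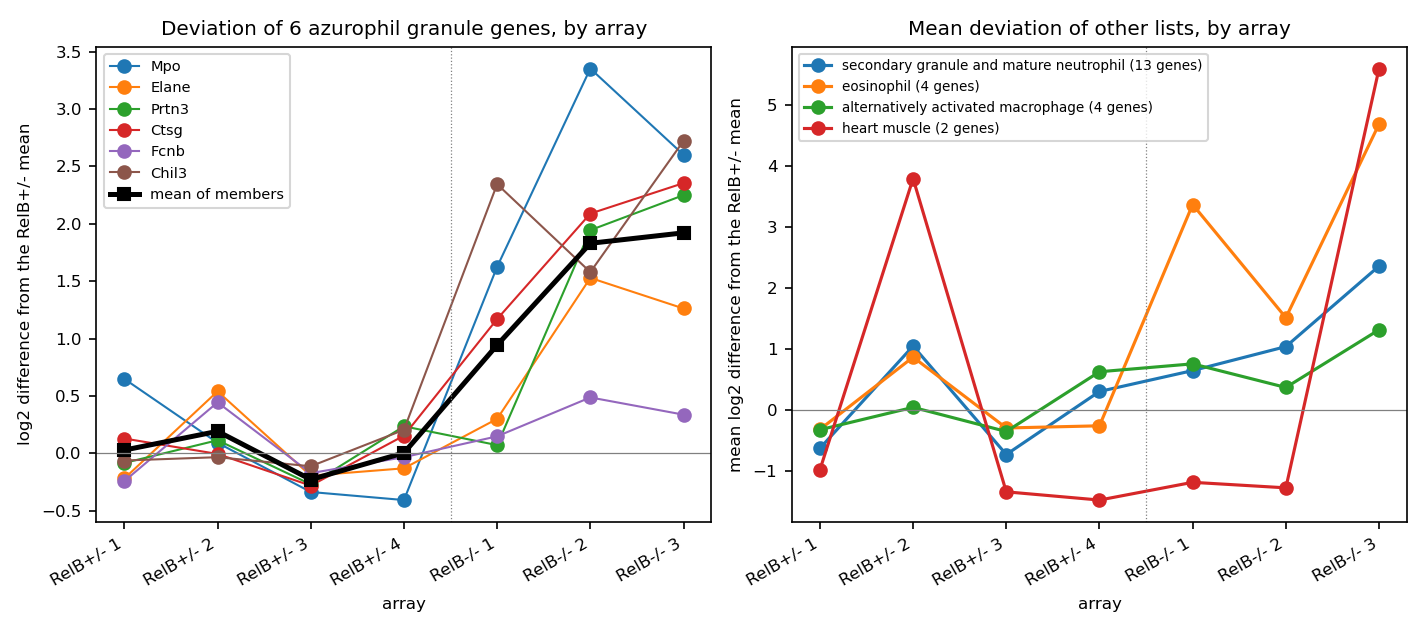
Log2 difference from the RelB+/- mean (vertical axes) on each array (horizontal axes), for the 6 tested members and their mean (left) and for the means of 4 other lists (right). The member mean separates the genotypes, from 0.94 to 1.92 against -0.23 to 0.19, while the secondary granule mean of RelB+/- array 2 equals that of RelB-/- array 2 and heart genes peak on 1 array of each genotype.

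Other contents of the primary granule and the lysosome had a median fold close to that of all genes and no call. Of 13 such genes, 11 were on the array and 9 were tested, 0 were called, 1 had an unadjusted p under 0.05, and the median log2 fold was -0.15. Cd63, a membrane protein of azurophil granules and of lysosomes in many cells, had a log2 fold of -0.62 (SE 0.21, limma adjusted p = 0.292). Ctsc, the protease that activates the neutrophil serine proteases, had 0.38 (SE 0.17, limma adjusted p = 0.404). Bpi, an antibacterial granule protein, was detected on 0 of 7 arrays.

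Of 12 inhibitors of these proteases, 4 were tested, 0 were called, 2 had an unadjusted p under 0.05, and all 4 folds were negative (median -0.78). Serpinb1a, an inhibitor of elastase, proteinase 3 and cathepsin G, had -0.84 (SE 0.30, limma adjusted p = 0.310). Serpina3n, whose human counterpart inhibits cathepsin G, had -0.72 (SE 0.28, limma adjusted p = 0.338). These differences did not pass the threshold.

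Of 10 transcription factors of granulocytes and monocytes, 8 were tested and 0 were called, with 3 at an unadjusted p under 0.05. Cebpe, needed for the step from promyelocytes to later neutrophils and for secondary granule genes, had 6.16 ± 0.750 (SD, n = 3) against 4.79 ± 0.212 (SD, n = 4). Its groups did not overlap, as in 7.38% of all genes tested in that direction, and the log2 fold was 1.37 (SE 0.32, limma adjusted p = 0.136). Without RelB-/- array 2 it passed the threshold (1.74, limma adjusted p = 0.0352). Spi1, which encodes PU.1, passed detection on none of the 3 RelB-/- and on 3 of the 4 RelB+/- arrays (limma adjusted p = 0.317). Its level in RelB-/- thymus is therefore known only as a bound.

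Of 10 receptors and surface genes of myeloid progenitors, 3 were tested, 0 were called, and 1 had an unadjusted p under 0.05. Cd177, a neutrophil surface protein that in humans holds proteinase 3 at the membrane, had a log2 fold of 1.20 (SE 0.28, limma adjusted p = 0.136). Cd177 was the gene with the unadjusted p under 0.05, and it is counted again in the secondary granule and mature neutrophil list. Csf2ra, a chain of the GM-CSF receptor, had -0.18 (SE 0.15, limma adjusted p = 0.623). Csf3r, the receptor for G-CSF, had 5 probes, of which 1 was detected, on RelB+/- array 3.

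Secondary granule and mature neutrophil genes had a larger median fold than the azurophil genes and 0 calls. Of 13 tested, 8 had an unadjusted p under 0.05, all higher, against 6.88% of all genes tested, and the median log2 fold was 2.10. Positive folds numbered 10 of 13, and Hp (-1.31), Orm1 (-0.77) and Chil1 (-0.25) went the other way, none of them called. Among untested genes of the list, Mmp8, Olfm4, Padi4 and Stfa2 were detected on no array. Cxcr2 was detected only on RelB-/- array 2 and Stfa1 only on RelB+/- arrays 2 and 3. Retnlg, a resistin-like protein of neutrophils, had 2.81 (SE 0.61, limma adjusted p = 0.110). It passed the threshold without both heart arrays (2.62, limma adjusted p = 0.0488) and with arrays scaled to the same median (2.76, limma adjusted p = 0.0281). The median SD of this list was 0.965 in RelB-/- and 0.893 in RelB+/- thymus, and that of the 6 members in RelB+/- thymus was 0.266. The members lie near background in RelB+/- thymus, where the offset shrinks differences. Neither the spreads nor the median folds of the 2 sets can therefore be set directly against each other.

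Among other cell types, the eosinophil gene Rnase2a, a ribonuclease of the eosinophil granule, rose with a log2 fold of 4.82 (SE 0.78, limma adjusted p = 0.0341) and was 1 of 4 eosinophil genes called, where 0.105% of all genes were called higher. Rnase2a passed detection on 1 RelB+/- array, so its RelB+/- mean of 4.83 comes mostly from background values. The size of its fold and its SE therefore depend on the background floor. Its call was lost in 12 of 21 alternatives, among them without both heart arrays (3.95, limma adjusted p = 0.0939), without RelB-/- array 1 or RelB+/- array 1, 2, 3 or 4 (limma adjusted p 0.141, 0.112, 0.0951, 0.124 and 0.072) and in the authors' processed values (2.35, limma adjusted p = 0.206). Fcgr4, an Fc receptor of monocytes, macrophages and neutrophils, rose with a log2 fold of 2.47 (SE 0.28, limma adjusted p = 0.00547) and was 1 of 11 monocyte and macrophage genes called (median -0.06). Summed linear levels of the monocyte and macrophage list ran from 9451 to 11057 on RelB-/- arrays and from 9450 to 13233 on RelB+/- arrays. Among alternatively activated macrophage genes, 4 were tested and 0 called, with 2 at an unadjusted p under 0.05. Of these, Retnla had 2.02 (SE 0.74, limma adjusted p = 0.319) and the mannose receptor gene Mrc1 had 0.63 (SE 0.21, limma adjusted p = 0.291).

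No marker of blood or of mast cells was called with all arrays. Of 6 erythroid genes tested, 0 were called and 0 had an unadjusted p under 0.05, with a median log2 fold of -0.43. Alas2, the first enzyme of haem synthesis in red cell precursors, had -1.63 (SE 0.96, limma adjusted p = 0.490) and the globin gene Hbb-bt had -1.26 (SE 0.72, limma adjusted p = 0.482). The summed level of the erythroid list was lowest on RelB-/- array 2, at 15153, against 18590 to 40336 on the other arrays. Of 6 mast cell and basophil genes, 0 were called and 1 had an unadjusted p under 0.05 (median -0.36), with Hdc, which makes histamine, at -1.0 (SE 0.33, limma adjusted p = 0.286) and Fcer1a, a chain of the IgE receptor, at 0.37 (SE 0.24, limma adjusted p = 0.519). Without RelB-/- array 3, Hdc passed the threshold (-1.42, limma adjusted p = 0.0465). Among 10 thymocyte genes 1 had an unadjusted p under 0.05, with the recombinase genes Rag2 at 0.56 (SE 0.23, limma adjusted p = 0.363) and Rag1 at 0.27 (SE 0.14, limma adjusted p = 0.451).

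**Figure D5:**
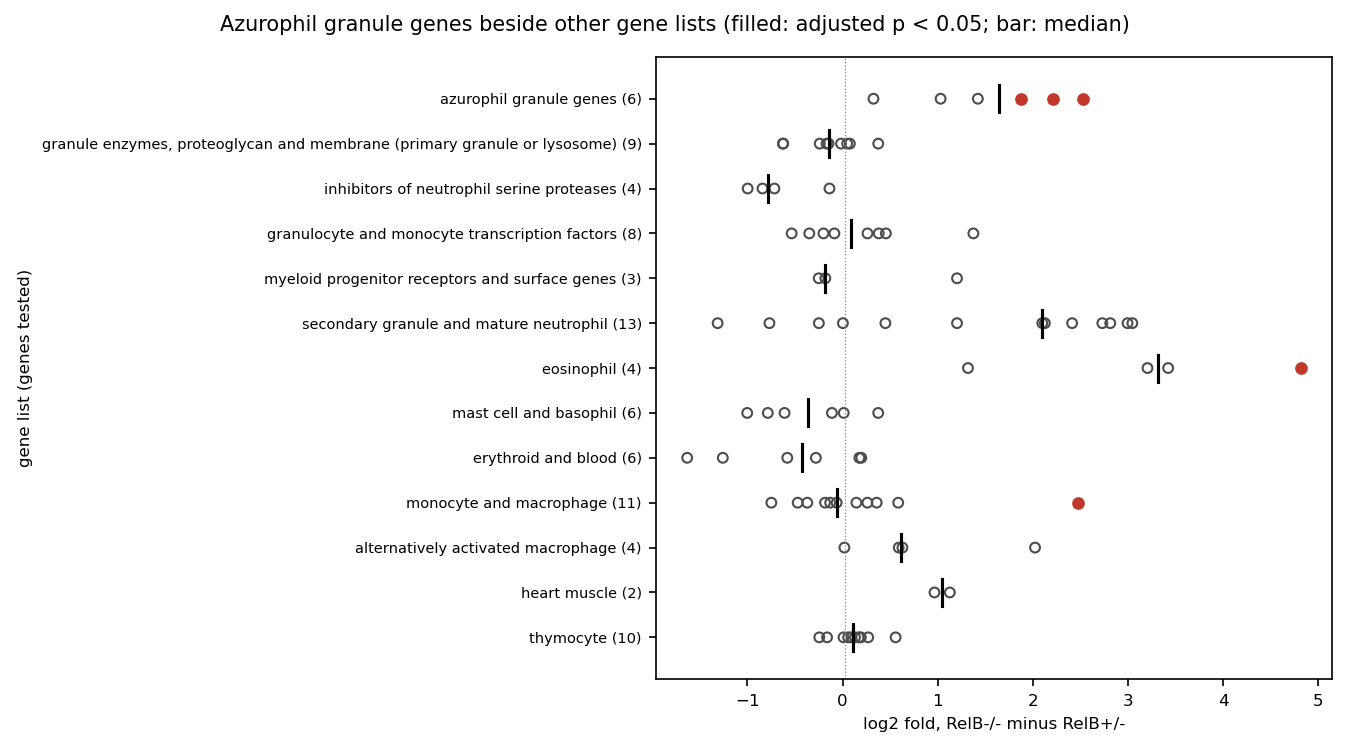
Log2 fold, RelB-/- minus RelB+/- (horizontal axis), of each tested gene in the azurophil granule set and 12 other lists (rows, genes tested in parentheses); filled points passed an adjusted p of 0.05, bars are medians and the dotted line is the median of all genes. The members spread from 0.32 to 2.53, secondary granule genes have a median of 2.10 with no call, and other granule enzymes lie around -0.15.

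The genes most like the mean member profile over the 7 arrays were found by the root mean square difference of their deviations, in log2 units. Nearest were Aif1l (0.26), Cd177 (0.28), Vtn (0.32), Klrg1 (0.33), Lilra6 (0.33) and Trem3 (0.34), beside a median of 0.86 over all genes tested. Among the members themselves Ctsg lay closest to the mean (0.19), followed by Elane (0.33) and Prtn3 (0.36), and Chil3 (0.57), Mpo (0.61) and Fcnb (0.67) lay farther away. Trem3 encodes a receptor of mouse myeloid cells. Klrg1, a receptor of effector lymphocytes, passed detection on every RelB-/- array and on 0 of 4 RelB+/- arrays. None of these 6 genes was called (limma adjusted p 0.0575 to 0.215), although Vtn passed with array weights (0.0455) and Lilra6 with chip position as a covariate (0.0155), and they were chosen on these same arrays, so nothing is read from their folds.

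None of the tested genes next to the members on the chromosome was called. Of 24 protein-coding neighbours, 2 on each side of a member and not members themselves, 21 were on the array and 10 were tested. By limma 0 were called and 0 had an unadjusted p under 0.05. Beside Elane and Prtn3, Med16 had a log2 fold of 0.06 (SE 0.16), Ptbp1 0.03 (SE 0.13) and Plppr3 -0.26 (SE 0.29). Beside Mpo, Supt4a had -0.20 (SE 0.17) and Tspoap1 -0.15 (SE 0.17), and beside Ctsg the mast cell protease gene Mcpt4 had -0.79 (SE 0.62). These neighbours were looked up after the members' values were seen.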

How the data were processed

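Whole thymus RNA of 7 mice was measured on 1 Illumina chip, on which the genotypes alternated from position to position. The authors deposited linear, unnormalized intensity values, and with each of them a detection p-value, per the file headers. They also deposited processed values that behave as log2 values, whose making is not given in the sources used here. Per the submitters' processing notes, GenomeStudio was among the tools.

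Background was corrected by normexp in limma 3.58.1 (R 4.3.3), with the background estimated from detection p-values and the offset set to 16, followed by log2 and quantile normalization. The filter asked for a detection p under 0.05 on 3 or more arrays and kept 12465 of 25695 probes. Of all probes, 23976 had 1 gene symbol, 1719 had none and 0 had several. The kept probe with the highest mean stood for a gene (9569 tested, 725 of them probes without a symbol). Genotypes were compared with lmFit and eBayes (2-sided), with p adjusted by Benjamini-Hochberg over all of these, and folds are RelB-/- minus RelB+/-. A probe detected on no array of a group has only a bound there, set against the lowest detected signal of each array or the probe's own value if higher. Offset and background shrink the folds of dim probes.

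The members and lists were chosen with earlier results of these data known. Named were Relb, all members, the called genes of each list (up to 4, or the 2 with the smallest p), and the 6 genes most like the members. Genes named otherwise were chosen after their values were seen. These were Bpi, Csf3r, Chil4, Hp, Orm1, Chil1, Cxcr2, Mmp8, Olfm4, Padi4, Stfa1 and Stfa2. The others were Epx, Ear10, Ccr3, Il5ra, Siglecf, Arg1, Pdcd1lg2, Clec10a and the chromosomal neighbours. The comparison was also tested on simulated data of 9569 genes: 62% of genes changed by a log2 fold of 1 and 89% at a log2 fold of 2 were called, and 6 unchanged genes were called. The simulated noise was independent between genes, with the same SD in both genotypes and no background floor. These rates therefore need not hold for the members. The number of arrays limits the precision. Same-numbered arrays of the genotypes had deviations correlated at 0.32, -0.18 and -0.20, so the numbers were not taken as pairs. Alternatives covered background, offset, normalization, the deposited processed values, filters, probe choice, variance model, array weights, a replicate block, chip position, the threshold and arrays left out. Figures were drawn with matplotlib.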

Additional observations from a re-analysis of the deposited data

Results flagged for a closer look

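Within the 4 RelB+/- arrays, 5 of 40 probe or gene groups had 1 array far from the other 3 by Dixon's ratio (gap to the nearest array over the whole range, 95% critical value), and chance alone gives about 1 in 20. Elane (ILMN_1221700) had a ratio of 0.883, from the high normalized value of RelB+/- array 2 (log2 5.36). In raw intensity that array was the lowest, at 112.63 against 114.32, 113.13 and 131.84 on RelB+/- arrays 1, 3 and 4. Leaving that array out gave Elane a log2 fold of 1.21 (limma adjusted p = 0.219). The heart genes Myl4 and Nppa had ratios of 0.912 and 0.9, both from RelB+/- array 2. Among the genes most like the members, Aif1l had a ratio of 0.869 from the low value of RelB+/- array 3, and Trem3 one of 0.847 from the high value of RelB+/- array 4.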

How the results depend on the processing

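With the settings above, 10 genes were higher, 64 were lower and 3 members were called. Without background correction 6 genes were higher and 1 member was called, and with the authors' processed values 2 were higher, 23 lower and 0 members called. With no detection filter 6 genes were higher, and with detection on all 7 arrays 3 were higher, 12 lower and 0 members called, since no member was kept. Without both arrays with heart transcripts 6 were higher, 26 lower and 1 member was called, and at an adjusted p under 0.10 16 were higher. With the replicate block 1 gene was higher, 23 were lower and 0 members were called (Mpo log2 fold 2.39, Ctsg 1.92, Chil3 2.28). Leaving out 1 array at a time gave 4 to 8 higher genes, 34 to 65 lower genes and 1 to 4 called members. Tested members had a positive fold under every alternative that kept them. Mpo was called in 10 of 21 alternatives, Ctsg in 12 of 21, Chil3 in 19 of 21, Prtn3 in 1 of 20, and Elane and Fcnb in none. The heart genes changed sign, with array weights to -0.19 (Myl4) and -0.33 (Nppa), and over single arrays left out they ranged from -0.87 to 2.18 (Myl4) and from -1.59 to 2.52 (Nppa), lowest without RelB-/- array 3; without both heart arrays Nppa was at -0.28. The cause of these changes was not tested. Most member probes lie near background, which limits their folds.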
